A study of Mus musculus with 38 samples.

Results

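The broad domains of H3K4me1 before and after the first week of SOX9 were compared in mouse epidermal stem cells (EpdSCs). H3K4me1 is monomethylation of lysine 4 of histone H3. The members were all domains in the pooled list of D0 (87287 domains) and in that of W1 (69439 domains), that is 156726 of the 384013 domains in the 5 H3K4me1 lists of skin in the series. They rest on 4 of its 38 samples. A domain was called D0-only or W1-only when no domain of the other list overlapped it by at least 1 bp, and matched otherwise.

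Both groups were male mice of the genotype K14rtTA; TRE-myc-Sox9, in which the *Krt14* promoter drives the doxycycline (DOX) dependent activator rtTA, so that DOX switches on a MYC-tagged *Sox9* transgene in *Krt14*-expressing epithelium. Induction began with a DOX injection at postnatal day 21 and went on with DOX feed. D0 cells were not induced and W1 cells had 1 week of DOX. The age of the uninduced animals and the number of animals per replicate were not given in the sources used here. EpdSCs were sorted from back skin as CD31, CD45, CD117 and CD140a negative, CD49f high, CD34 negative and Ly6A high cells. Each time point had 1 library from a high and 1 from a low digest with micrococcal nuclease, each holding 2 replicates told apart by barcode. The deposited list of a time point pools all of them, so that no value below has a replicate spread. No test between time points was possible, no p-value is given for a difference, and the 95% intervals cover counting error only.

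H3K4me1 is laid down mainly by the methyltransferases KMT2C and KMT2D at enhancers, where it marks both primed elements and those in use, and it often flanks active promoters. Acetylation of lysine 27 of the same histone (H3K27ac) is added at enhancers and promoters in use. SOX9 is an HMG-box transcription factor of the hair follicle stem cell and outer root sheath, which adult EpdSCs normally lack, and its HMG box reads short cores such as ACAATG and ACAAAG. AP1, RUNX, GATA and p63 factors are among those that act at epidermal enhancers.

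The sequences below show what such domains hold. They are 200-base stretches on the + strand of GRCm38 from RefSeq. Each was taken from 1 of the 3 W1-only or 3 D0-only domains with the smallest p-values, from the stretch of the domain with most matches to 5 short motifs. Capitals mark matches on either strand to a first SOX core ACAATG, whose reverse complement reads CATTGT, and to a second SOX core ACAAAG, which reads CTTTGT on the opposite strand. They also mark the AP1 site TGANTCA, the GATA motif GATAAG, and the RUNX motif ACCACA, which reads TGTGGT on the opposite strand.
W1-only, intron of Nol4l, chr2:153423001-153423200: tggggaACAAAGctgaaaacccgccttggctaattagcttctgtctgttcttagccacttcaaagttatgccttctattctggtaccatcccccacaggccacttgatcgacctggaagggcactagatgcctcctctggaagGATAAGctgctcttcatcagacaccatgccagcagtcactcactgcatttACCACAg
W1-only, between genes, nearest 1500015O10Rik, chr1:43590701-43590900: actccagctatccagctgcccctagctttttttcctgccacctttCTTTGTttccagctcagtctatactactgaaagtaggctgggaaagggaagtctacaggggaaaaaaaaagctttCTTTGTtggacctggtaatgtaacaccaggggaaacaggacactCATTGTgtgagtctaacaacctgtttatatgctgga
W1-only, intron of Fhit, chr14:9960501-9960700: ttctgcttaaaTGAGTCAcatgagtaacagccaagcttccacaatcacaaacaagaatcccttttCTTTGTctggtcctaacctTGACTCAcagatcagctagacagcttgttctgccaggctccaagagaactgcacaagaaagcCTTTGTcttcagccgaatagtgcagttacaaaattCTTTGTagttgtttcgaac
D0-only, intron of Gria2, chr3:80782001-80782200: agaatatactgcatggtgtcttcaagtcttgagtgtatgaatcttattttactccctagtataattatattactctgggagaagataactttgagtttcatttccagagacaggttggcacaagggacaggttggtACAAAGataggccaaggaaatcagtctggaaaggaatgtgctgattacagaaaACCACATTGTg
D0-only, intron of Brd9, chr13:73953401-73953600: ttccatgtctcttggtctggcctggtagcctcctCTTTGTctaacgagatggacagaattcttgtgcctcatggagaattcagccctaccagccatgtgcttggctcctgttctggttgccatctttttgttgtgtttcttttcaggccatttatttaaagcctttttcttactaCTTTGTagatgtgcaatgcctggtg
D0-only, intron of Tsc22d3, chrX:140582701-140582900: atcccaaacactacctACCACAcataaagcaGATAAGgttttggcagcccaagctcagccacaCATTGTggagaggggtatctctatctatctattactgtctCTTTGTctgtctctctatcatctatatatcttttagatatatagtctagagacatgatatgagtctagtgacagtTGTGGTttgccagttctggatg
In the *Gria2* stretch the RUNX match and the reverse of ACAATG share 2 bases. Since the stretch of each domain was chosen for its matches, these counts say nothing of how often a motif occurs, which is given over all domains below.

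First it was asked how much of the H3K4me1 landscape differed after 1 week. Most of it was shared. Of the 309.67 Mb covered at D0, 73.0% was covered at W1, and of the 263.6 Mb covered at W1, 85.8% was covered at D0. Of the W1 domains 4138 (5.96%, 95% interval 5.78% to 6.14%) had no counterpart at D0, whereas 24304 (27.8%, 27.5% to 28.1%) of the D0 domains had none at W1. The surplus of D0-only domains moved with the length of the lists: when both lists were shortened by rank to one length there were 8814 W1-only and 12088 D0-only domains. How many reads lay behind each H3K4me1 list is unknown, and the part that depth has in these counts was not tested.

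Unmatched domains were narrow and lay low in their lists. The median width was 1800 bp for W1-only and 1400 bp for D0-only domains, against 2800 bp for matched domains of W1 and 3000 bp for those of D0. Ranked by the p-value of the authors' caller, the D0-only share went from 0 of 8728 domains in the first of 10 equal parts of the D0 list, where the exact interval reaches up to 0.0423%, to 71.8% in the last part. The W1-only share went from 0.173% (12 domains) to 18.4%. The first D0-only domain stood at rank 12095 and the first W1-only domain at rank 2519. By width, 69.4% of D0 domains under 1000 bp were D0-only, but 9 of 7342 (0.123%) of at least 8000 bp.

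**Figure D1:**
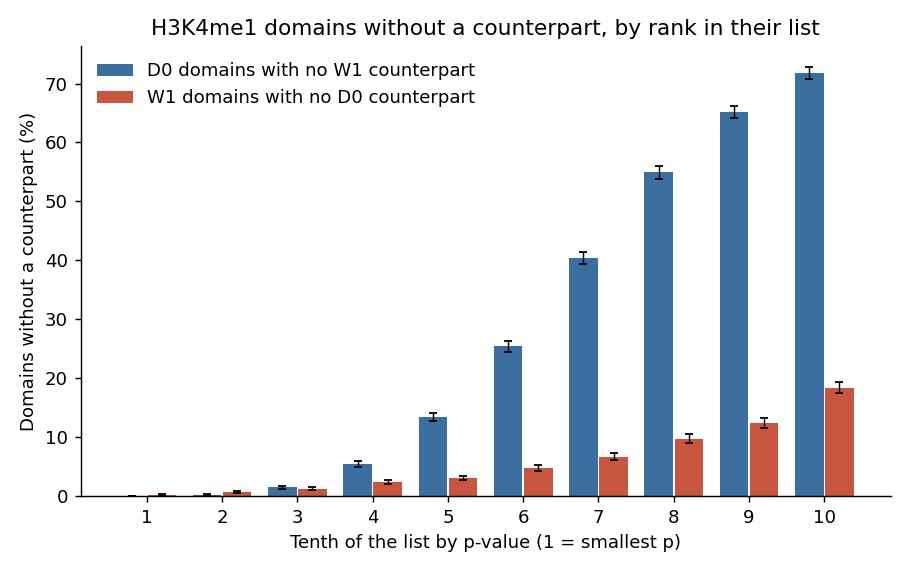
Percentage of domains without a counterpart in the other list, by rank of the p-value within the list in 10 equal parts (1 holds the smallest p), for the D0 list (D0-only) and the W1 list (W1-only), with exact 95% intervals that cover counting error only. The D0-only share reaches 71.8% and the W1-only share 18.4% in the last part.

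Unmatched domains mostly had neighbours in the other list. The nearest domain of the other list was a median of 5600 bp from a W1-only domain and 6400 bp from a D0-only domain, and it lay within 10000 bp for 67.8% and 63.3% of them.

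Chromosome X stood apart in domains without a counterpart at W1. Of its 2041 D0 domains 893 (43.8%, 41.6% to 45.9%) were D0-only, whereas the 19 autosomes ranged from 26.0% (chromosome 7) to 29.4% (chromosome 18). The difference was present at like rank: with the D0 list in 4 equal parts by rank, 30.7% of X domains and 7.23% of autosomal domains of the second part were D0-only, and 69.2% and 35.4% of the third part. In lists of equal length the D0-only share was 42.0% on X and 16.7% on autosomes. The W1-only share of X was 8.63% in the full lists, above the autosomal range of 4.30% to 8.35%, but with lists of equal length it was 9.18% on X and 12.8% on autosomes. Both groups were labelled male, and the part that animals, libraries or depth have in the values of X was not tested.

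The W1-only domains with the smallest p-values were wide elements inside or between genes, and most recurred in every later list. The domain in *Nol4l* (chr2:153422401-153431000, 8600 bp, at rank 2519 of the W1 list) lay 13479 bp from the nearest start and held 2 H3K27ac peaks at W1 and none at D0. One of 11400 bp lay between genes, 129402 bp from 1500015O10Rik, and held 1 W1 peak. In the intron of *Fhit*, a dinucleotide hydrolase gene at a fragile site, one of 8800 bp held 1 W1 peak and was 79000 bp from the nearest D0 domain. Others in the first 10 lay near *Meis1* (a TALE homeobox factor), *Tcim*, *Zfp488*, *Rpa1* (a single-strand DNA binding protein), *Abtb2* and, on X, *Sh3kbp1* (an adaptor in receptor uptake). The domain in the intron of *Zbtb20*, which encodes a zinc finger repressor, held 2 W1 peaks with an H3K27ac fold enrichment of up to 16.9. Of these 10 domains 8 held a W1 peak, 0 a D0 peak, and 9 were in the lists of W2, W6 and W12. That near *Sh3kbp1* was missing at W12.

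The widest W1-only domain, of 11800 bp, lay 11079 bp from *Sbspon*. After the domain near 1500015O10Rik, the next were of 10600 bp over *Tmed10* (nearest start *Nek9*), 9600 bp near *Ccser1* and a further domain of 9200 bp in *Fhit*. All of these were in every later list.

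The D0-only domains with the smallest p-values were narrower and mostly did not return. They lay in introns of *Gria2* (an AMPA receptor subunit, 3000 bp, at rank 12095 of the D0 list), *Brd9* (a bromodomain subunit of BAF complexes, nearest start *Zdhhc11*, 3800 bp) and *Tsc22d3* (a gene induced by glucocorticoids, 6800 bp, on X). Others were near *Pard3* (a polarity protein), *Anxa3*, *Ercc6l2*, *Lonrf3*, *Camk2a*, *Usp11* and in *Eda*, the ectodysplasin ligand that hair placodes need (nearest start *Awat2*). Of these 10 domains 4 were on X, and 9 were in no later list. Only that near *Pard3* was seen again, at W12. The *Gria2* domain held 1 D0 H3K27ac peak, and none of the 10 held a W1 peak.

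The 5 widest D0-only domains lay in *Rptor*, a subunit of mTORC1 (11200 bp), near *Slc22a8* (10000 bp) and *Mbp* (9800 bp), and over *Gfod1* (nearest start *Tbc1d7*) and *Fnbp1l* (8600 bp each). Of these, 4 were in at least 1 later list.

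Next, matched domains were examined for splitting, merging and width. They formed 58923 groups, of which 50749 (86.1%, 85.8% to 86.4%) paired 1 D0 domain with 1 W1 domain. In 4508 groups (7.65%) 1 D0 domain lay over 2 or more W1 domains (split), in 2865 (4.86%) 1 W1 domain lay over 2 or more D0 domains (merged), and 801 were mixed. Of the splits 85.4% were into 2 pieces and of the merged domains 92.2% held 2.

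Splits and mergers both took place across short gaps. The median gap was 1000 bp in both, and 40.3% of the split and 41.3% of the merged gaps were 800 bp, the smallest gap found within either list. Split D0 domains had a median width of 9400 bp, of which a median of 78.3% was still covered at W1. Gaps that closed between D0 and W1 held a transcription start more often (19.4%) than gaps that opened (9.57%). A W1 H3K27ac peak lay in 20.97% of the closed and 9.37% of the opened gaps, and a D0 peak in 18.6% and 10.3%.

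The D0 domains with most pieces at W1 were 30600 to 59600 bp wide. The D0 domain of 44400 bp in *Frmd4b* corresponded to 7 pieces that covered 68.0% of it, and one of 37000 bp in *Hivep2* to 7 pieces. Those at *Ksr1*, a scaffold of the MAP kinase pathway (57800 bp), and *Arhgef5* (30600 bp) corresponded to 6 pieces, and that at *Il1r2*, the decoy receptor for interleukin 1 (59600 bp), to 5 that covered 61.4%. In the opposite direction, 6 D0 domains lay under a W1 domain of 46000 bp at the start of *Actn1*, which encodes an actin cross-linker, and 6 each under W1 domains near Gm10260 and at *Emb* (nearest start Gm17509). A W1 domain of 53000 bp, 316777 bp from *Sox9*, joined 5 D0 domains, as did one of 43600 bp over *Fancc*.

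Domains paired 1 to 1 were more often narrower at W1 (51.4%, 50.9% to 51.8%) than wider (36.8%, 36.4% to 37.2%), and 11.8% had the same width. The median of W1 minus D0 was -200 bp, which is 1 calling bin, and the 5th and 95th percentiles were -2400 and 1600 bp. The W1 domain was at least double the D0 width in 2521 pairs (4.97%) and the D0 at least double the W1 width in 3786 (7.46%). Both ends lay inward in 20.4% of pairs and both outward in 11.7%, while 22.6% were shifted one way. Narrowing was somewhat more frequent among wide pairs: 57.2% of those with a mean width of at least 8000 bp were narrower, against 40.3% of those under 1000 bp. The median p-value from the authors' caller was 4.61e-84 for matched domains of D0 and 3.05e-33 for those of W1. The part that this difference has in the widths was not tested.

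Width moved with acetylation. Of 4171 pairs that held an H3K27ac peak at W1 and none at D0, 50.6% (49.0% to 52.1%) were wider and 39.4% narrower. Of 3692 pairs with a peak at D0 and none at W1, 24.6% (23.2% to 26.0%) were wider and 2400 pairs narrower. Pairs with a peak at both times (34.3% wider) or at neither (37.2% wider) lay between these. At equal length of the lists the wider shares were 50.4% and 25.2% for pairs with a peak at W1 only and at D0 only. The median width of pairs with a W1 peak only was 3400 bp at D0 and 3600 bp at W1, and of those with a D0 peak only 3800 and 3200 bp.

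**Figure D2:**
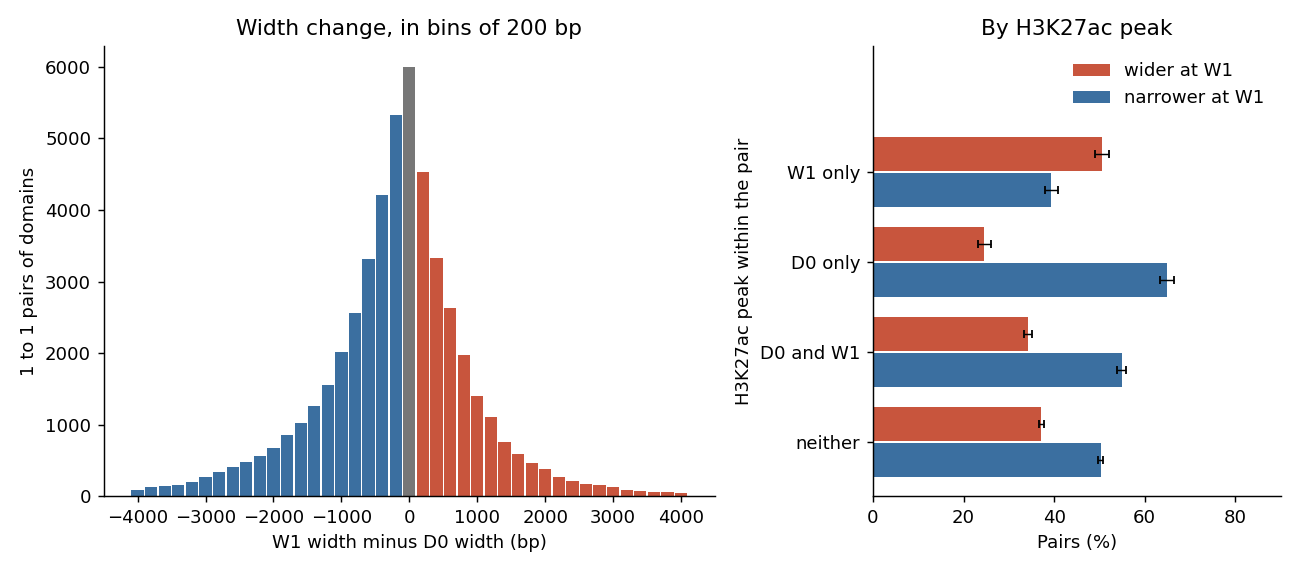
Left, number of 1 to 1 pairs by W1 minus D0 width in bins of 200 bp between -4000 and 4000 bp. Right, percentage of pairs wider and narrower at W1 by whether the pair held an H3K27ac peak at neither time, at both, at D0 only or at W1 only, with exact 95% intervals for counting error. Of pairs with a peak only at W1, 50.6% were wider, against 24.6% of those with a peak only at D0.

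The pair that widened most lay 148242 bp from *Ccn2*, which encodes a secreted matricellular protein, and went from 1800 to 13600 bp. Next were pairs in *Inpp4a* (2400 to 13800 bp), *Clic4* (4600 to 15600 bp), *Tln2*, which encodes a talin that links integrins to actin (1000 to 10800 bp), and *Nav1* (3000 to 12600 bp). The pair that narrowed most lay 51379 bp from *Naa11* and went from 15200 to 2000 bp. It was followed by pairs in *Kat2b*, a histone acetyltransferase (13800 to 2600 bp, nearest start *Sgo1*), *Col23a1* (15000 to 4800 bp, nearest start *Phykpl*), *Bmp3* (11400 to 1400 bp) and *Jarid2*, a cofactor of Polycomb complex PRC2 (15000 to 5200 bp).

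Counted in bases, the W1-only part was mostly edges. Of the 37.5 Mb covered at W1 only, 64.2% lay at the ends of matched groups, 22.6% in whole W1-only domains and 13.2% in gaps that closed. Of the 83.6 Mb covered at D0 only, 45.0% lay at ends, 45.0% in whole D0-only domains and 9.96% in gaps that opened.

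Unmatched domains lay away from gene starts in both directions. Of the W1-only domains 86.8% (85.8% to 87.8%) were over 2500 bp from any start, as were 83.9% (83.4% to 84.4%) of the D0-only and 64.4% of the matched D0 domains. A start lay within 4.91%, 5.93% and 21.7% of them. The median distance was 16126 bp for W1-only, 13798 bp for D0-only and 7633 bp for matched domains. By their centre, 51.2% of W1-only domains were intronic and 40.6% intergenic, and of D0-only domains 48.3% and 40.3%.

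W1-only domains seldom held H3K27ac, but where they did it was mostly at W1. A D0 peak lay in 35 of them (0.846%, 0.590% to 1.17%) and a W1 peak in 266 (6.43%, 5.70% to 7.22%). In D0-only domains the order was opposite, with 2.77% (2.56% to 2.98%) at D0 and 1.963% (1.79% to 2.14%) at W1. Matched D0 domains held a peak in 30.6% and 31.9%. Width bears on these shares: of domains of 1400 to 2600 bp, 5% of W1-only, 2.07% of D0-only and 15.2% of matched domains held a W1 peak. Of the 1035 W1-only domains with the smallest p-values, the first of 4 equal parts by rank, 18.8% held a W1 peak and 1.16% a D0 peak. The H3K27ac lists held 30268 peaks at D0 and 32544 at W1.

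A larger share of W1-only than of D0-only domains was found in later lists. W2, W6 and W12 are pooled lists from 2, 6 and 12 weeks of DOX. They held 73415, 79556 and 74316 domains, against 87287 at D0 and 69439 at W1, and the part that depth has was not tested. By the labels a W2 replicate shared its libraries with the W12 replicates. No such share is given for matched domains. The W12 cells, unlike those of the other times, came from neonatal skin that was grafted onto immunocompromised hosts and induced once it had healed, so that at W12 time and graft cannot be told apart. Of the W1-only domains 39.8% were in all of the W2, W6 and W12 lists and 16.9% in none, against 10.8% and 49.1% of the D0-only domains. With lists of equal length these were 40.6% and 15.4% for W1-only and 12.2% and 46.8% for D0-only domains. From the first to the last of 4 equal parts by p-value, the share in all later lists went from 60.2% to 26.5% for W1-only domains and from 13.7% to 8.97% for D0-only domains. Of the 266 W1-only domains with a W1 H3K27ac peak, 182 (68.4%) were in all later lists.

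The sequences of the domains were then searched for the motifs spelled out with the stretches above, in the central 600 bp and on both strands. The first SOX core, ACAATG, was in 38.9% (37.4% to 40.4%) of W1-only domains, 27.4% (26.8% to 27.9%) of D0-only domains and 27.4% of matched D0 domains, and in 27.6% of all domains of both lists. The second, ACAAAG, was in 54.2% (52.6% to 55.7%), 41.5% (40.9% to 42.2%), 43.1% and 43.1%. Both cores were thus held by a larger share of W1-only domains. The AP1 site was in 24.2% of W1-only and 23.9% of D0-only domains, and in 22.1% of all. GATAAG was in 20.2% of W1-only and 22.5% of D0-only domains and in 19.5% of all. ACCACA was in 38.6%, 36.9% and 37.0%.

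Base composition differed little and the share with ACAATG kept its order within it. The central 600 bp held a median of 44% G and C in W1-only, 44.8% in D0-only and 46.0% in matched domains, and among windows with 44 to 48% the share with ACAATG was 37.7%, 26.6% and 27.7%. It was 35.04% in W1-only and 26.9% in D0-only domains of lists of equal length. It was 38.4% in the 1035 W1-only domains with the smallest p-values, and 35.7% (29.96% to 41.8%) in the 266 with a W1 H3K27ac peak.

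Around the centres of W1-only domains ACAATG was densest near the middle. It occurred 0.894 times per kb in the 100 bp to the right of the centre, the highest value. The steps centred 150 and 450 bp to the right had 0.785 and 0.887. The outermost 100 bp, 3 kb to the left and right, had 0.604 and 0.679 matches per kb. With median widths of 1800 bp for W1-only and 1400 bp for D0-only domains, these outermost positions lie outside most domains. For D0-only domains the centre and the same outermost positions had 0.538, 0.632 and 0.583 matches per kb. The AP1 site was denser at the centre of both, with 0.551 matches per kb in W1-only and 0.508 in D0-only domains in the 100 bp to the left of the centre. There GATAAG had 0.452 matches per kb in D0-only domains, against 0.371 and 0.330 in the outermost 100 bp to the left and right. For W1-only domains GATAAG had 0.367, 0.387 and 0.353 at these positions, and 0.433 in the step centred 150 bp to the left of the centre. Bases that W1 added to matched groups held 0.606 ACAATG per kb, those that D0 alone covered there 0.550, and bases covered at both times 0.549. A match is a description of letters and not evidence of binding.

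**Figure D3:**
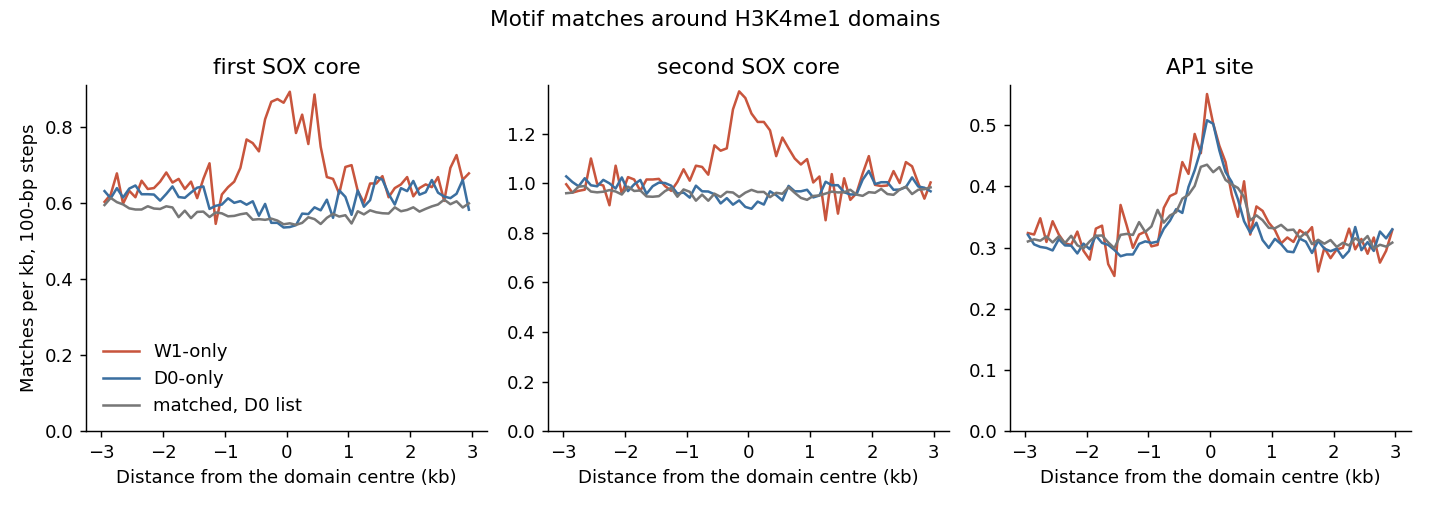
Matches per kb on either strand of the first SOX core, the second SOX core and the AP1 site in steps of 100 bp from 3 kb before to 3 kb after the domain centre, for W1-only, D0-only and matched D0 domains. The first SOX core (ACAATG) reaches 0.894 per kb at the centre of W1-only domains and 0.538 per kb at that of D0-only domains, while the AP1 site is densest at the centre in both.

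The domains were then assigned to the protein-coding gene with the nearest start. Of 21938 such genes 2730 were nearest to at least 1 W1-only domain and 9575 to at least 1 D0-only domain. In the full lists the largest number of W1-only domains fell to *Zbtb20*, with 23 W1-only and 4 D0-only domains. The 23 lay 3293 to 161684 bp from its start, and 4 of them held a W1 H3K27ac peak and 0 a D0 peak. Of the 23, 10 were in no later list and 3 in all, against 16.9% and 39.8% of all W1-only domains. *Adgrl2*, an adhesion receptor gene, had 15 W1-only and 18 D0-only domains. *Cxcr4*, the receptor of the chemokine CXCL12, had 14 and 1, *Adamts9*, an extracellular protease gene, 13 and 5, and *Mitf*, a transcription factor gene known from melanocytes, 12 and 7. *Sema6a*, a transmembrane semaphorin gene, had 12 W1-only and 0 D0-only domains, and each of the 12 was in at least 1 later list. *Rbms3* (12 and 13), *Tcf4* (10 and 6), *Tcim* (10 and 0) and *Pde4b* (9 and 3) completed the first 10. The W1-only domains were 23 of the 48 W1 domains nearest to *Zbtb20*, 14 of 29 for *Cxcr4* and 12 of 26 for *Sema6a*. They were 12 of 23 for *Mitf*, 13 of 35 for *Adamts9*, 10 of 30 for *Tcim* and 9 of 31 for *Pde4b*. For *Rbms3* they were 12 of 46, for *Tcf4* 10 of 48 and for *Adgrl2* 15 of 82. The W1-only share of the whole W1 list was 5.96%. Of the 10 *Tcim* domains 7 were in no later list. The order depended on the length of the lists. In lists of equal length *Adgrl2* had 27 W1-only and 11 D0-only domains, more W1-only domains than *Zbtb20* with 25 and 1, and *Rbms3* had 18 and 4, so that the larger count of both *Adgrl2* and *Rbms3* turned from D0-only to W1-only. *Tcf4* then had 22 and 3, *Adamts9* 19 and 2, *Sema6a* 17 and 0, *Cxcr4* 16 and 0, *Mitf* 13 and 2, *Tcim* 11 and 0 and *Pde4b* 10 and 2.

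The genes with most D0-only domains had them spread over long distances, the farthest between 158577 and 1483109 bp from the start. *Robo1*, a receptor for SLIT ligands, had 37 D0-only and 3 W1-only domains, and 32 of the 37 were in no later list. *Sox9* itself came next, with 34 D0-only and 1 W1-only domains, 4377 to 778024 bp from its start. The domains nearest to *Sox9* numbered 85 at D0 and 53 at W1, and 21 of the 34 were in the W2 list and 10 in all later lists. Then came *Zfp608* (34 of its 103 D0 domains), *Flrt3* (32 of 77), *Acvr2a*, an activin receptor gene (31 of 76), *Efna5*, an ephrin gene (30 of 83), 3110018I06Rik (29 of 82), *Auts2* (26 of 89), *Diaph2*, on X (26 of 37), and *Pde4d* (26 of 70). The 37 of *Robo1* were out of 76 D0 domains. These genes were nearest to 37 to 103 D0 domains each, and the D0-only counts of *Auts2* and *Zfp608* lay close to the share of 27.8% over the whole D0 list. When the lists were of equal length, *Robo1* had 24 D0-only and 7 W1-only domains, *Diaph2* 24 and 1, *Zfp608* 21 and 9, *Sox9* 19 and 3, 3110018I06Rik 19 and 2, *Acvr2a* 16 and 2, *Flrt3* 14 and 4, *Efna5* 14 and 10, *Auts2* 13 and 13 and *Pde4d* 12 and 6.

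To describe genes by function, the share of bases covered by domains was taken over each of 21911 protein-coding gene bodies with 10 kb on both sides, called its locus. The median locus was covered to 18.5% at D0 and 14.9% at W1. A higher share at W1 was found at 4122 loci (18.8%) and a lower share at 12910 loci (58.9%). A W1-only domain lay in 9.90% of loci and a D0-only domain in 44.3%. The median difference between W1 and D0 was -1.52 percentage points, and with lists cut to equal covered bases it was 0 with 33.5% of loci higher and 42.0% lower. At 4305 of the 21911 loci there was no domain in either list, so that they could be neither higher nor lower. The shares over all loci include them, while most lists below hold no such locus. Among loci with a domain the lower share is therefore above 58.9%, and a list can exceed 58.9% lower without standing apart. Cover at D0 also bounds how far a locus can fall in points, and it differed between lists, with a median of 83.8% for the epidermal keratins. A longer locus has more room to hold an unmatched domain, and locus length was not matched between lists. Each list of genes below is given with these limits, and its members were not tested as a set.

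Loci of basal keratinocyte markers were widely covered, with a median of 62.4% at D0 and 57.5% at W1 over 8 genes. Of these 1 was higher and 7 lower, with a median difference of -8.25 points (-5.01 with equal covered bases). Loci of 22 markers of other lineages had a median of 10.1% and 11.6%, but the median of their differences was -1.36 points, with 7 higher, 12 lower and 3 equal. Of the 22, *Cdh5* (endothelium), *Afp* (liver) and *Gata1* (erythroid cells) had no domain at either time, and the fibroblast genes *Col1a2* and *Col3a1* had none at W1. Other markers of the same lineages had domains at both times: endothelial *Pecam1* had 9 domains at each, with 50.3% and 44.2% cover, and the fibroblast genes *Col1a1* and *Pdgfra* had 49.97% and 43.999%, and 20.6% and 19.4%. These 8 genes were picked out after their values were seen. *Mitf* was the marker with the largest higher value, at 13.5% and 24.9%, with 9 W1-only and 3 D0-only domains within its locus. The other melanocyte markers of the list differed in direction. *Pmel* was lower, at 34.97% and 19.99%, with 3 D0-only and 0 W1-only domains. *Dct* was also lower, at 21.5% and 18.5%, while *Kit* was higher by 0.589 points. *Pmel*, *Dct* and *Kit* were likewise picked out after their values were seen. The T cell gene *Cd3e* had 38.2% and 16.9%.

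The keratins of the epidermis had lower cover at W1 in 7 of 8 loci, with a median difference of -18.0 points, and in 7 of 8 with a median of -13.3 points when the lists were cut to equal length or to equal covered bases. The locus of *Krt10*, a keratin of differentiating cells, was covered to 64.6% at D0 and 39.7% at W1, and those of *Krt2* to 81.1% and 56.0%, *Krt1* to 86.6% and 70.8%, *Krt77* to 97.7% and 77.5% and *Krt78* to 49.1% and 28.3%. The basal keratins differed less: *Krt14* had 72.8% and 66.2%, and *Krt5* 89.2% and 89.9%, which was lower by 3.78 points with 50 kb on both sides. *Krt80* had 93.9% and 90.6%. Several of these genes lie within 1 cluster on chromosome 15, so that their loci share domains. A D0-only domain lay in 2 of the 8 loci and a W1-only domain in 0 of 8, against 44.3% and 9.90% of all loci.

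Genes of stress and simple epithelial keratins had a lower share at 6 of 8 loci, with a median difference of -8.27 points (-3.52 with equal covered bases). *Krt8* had 33.8% and 17.3%, *Krt18* 24.3% and 10.1%, *Krt19* 89.0% and 77.5%, *Krt7* 67.1% and 58.5%, *Krt16* 63.6% and 55.7% and *Krt6a* 41.4% and 39.0% (higher by 2.68 points with 50 kb on both sides). *Krt17*, a keratin of the outer root sheath, was higher at 84.7% and 90.3%, although lower by 3.80 points with 50 kb on both sides. *Krt6b* had no domain.

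Of 13 genes that anchor basal cells to the basement membrane, 12 had lower cover, with a median difference of -9.94 points (-5.25 with equal covered bases, again 12 of 13). *Bcam*, which encodes a laminin receptor, had 82.8% and 48.4%. *Col17a1*, a hemidesmosome collagen gene, had 96.3% and 83.8%, *Itgb4* 46.7% and 34.8%, *Itga6* 47.4% and 37.5% and *Itgb1* 40.3% and 29.6%. *Cd151*, a tetraspanin gene, had 88.4% and 89.2%, but was lower by 9.80 points with 50 kb on both sides. *Ly6a*, used in the sort, had 62.2% and 57.01%. Of 13 desmosome genes 11 were lower (median -4.55 points, and 9 lower and -2.99 with equal covered bases), from *Pkp3* at 88.3% and 70.9% to *Perp*, a target of p63, at 72.0% and 74.5%, a locus that was lower by 2.86 points with 50 kb on both sides.

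In the epidermal differentiation list 15 of 21 loci were lower, with a median of -4.72 points (-0.590 with equal covered bases). *Tgm3*, an enzyme that cross-links the cornified envelope, had 76.6% and 52.8%, whereas *Cdsn*, of corneodesmosomes, had 49.5% and 59.9% but was lower by 0.571 points with 50 kb on both sides. Of 20 epidermal transcription factors 15 were lower, with a median of -4.60 points (-2.60 with equal covered bases). *Klf5* had 69.4% and 54.0% with 2 D0-only domains, *Gata3* 67.2% and 57.8% and *Ovol1* 66.4% and 72.1%, which was lower by 2.33 points with 50 kb on both sides.

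At *Trp63*, which encodes p63, the master regulator of stratified epithelia, the locus had 13 domains and 62.5% cover at D0 and 15 domains and 58.0% at W1. A D0 domain of 73000 bp in the 3' part of the gene lay over W1 domains of 16000 and 55800 bp. At *Gata3* a domain of 21000 bp over the 3' end of the gene paired with one of 16000 bp, and within the gene body alone cover was higher at W1 by 2.66 points.

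Of the 20 lists, that of the RUNX factors alone had a median above 0 in the full lists, at 1.33 points (4.21 with equal length and 4.68 with equal covered bases, with 4 of 4 higher in both). *Runx1* had 40.1% and 44.2%, and *Cbfb*, the common partner of RUNX proteins, 24.6% and 29.7%. *Runx2* had 23.4% and 21.9% and *Runx3* 18.6% and 16.3%, where 50 kb on both sides gave a value higher by 3.18 points. In *Runx1* a W1-only domain of 2800 bp lay 98749 bp inside the gene from its start and a D0-only domain of 1600 bp 62949 bp from it. A D0 domain of 5600 bp in the gene lay over 2 W1 domains of 3000 bp each, and a W1 domain of 5600 bp upstream of the start covered 2 D0 domains of 1400 and 1200 bp.

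**Figure D4:**
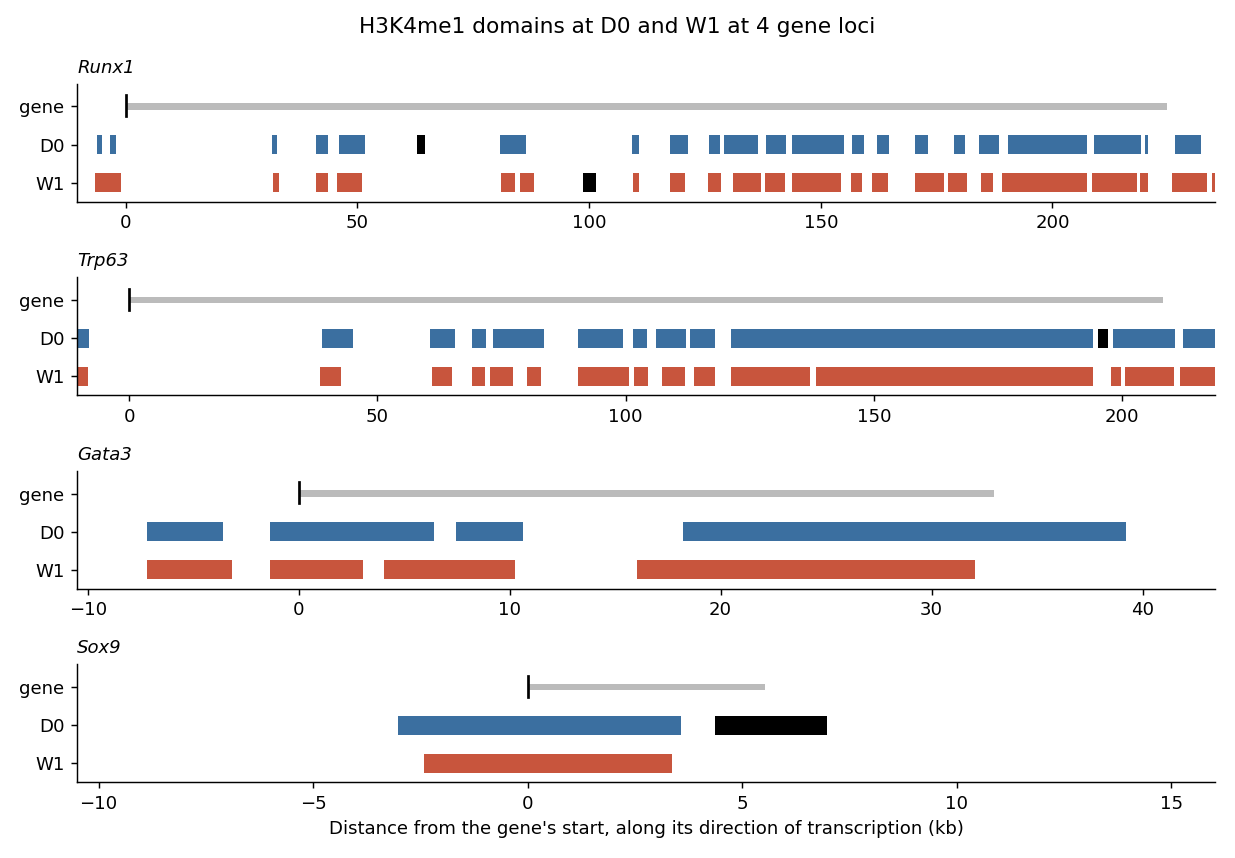
Domains at *Runx1*, *Trp63*, *Gata3* and *Sox9* by distance from the gene start in kb, at D0 (blue) and W1 (red), with the gene body in grey and unmatched domains in black, drawn to 10 kb beyond the gene. At *Runx1* 1 W1-only and 1 D0-only domain lie inside the gene, at *Trp63* the 73000 bp domain of D0 lies over 2 domains of W1, and at *Sox9* the D0-only domain lies over the 3' end.

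AP1 genes, whose products act at many epidermal enhancers, were lower at 9 of 10 loci and higher at none, with a median of -5.56 points (-1.35 with equal covered bases). *Fosl1* had 64.1% and 45.8%, *Fos* 94.9% and 81.2%, *Jun* 58.7% and 45.8%, *Fosb* 70.4% and 63.8% and *Atf3* 44.3% and 37.8%. *Jund* (44.3% and 39.7%), *Junb* (84.3% and 83.5%), *Batf* (11.8% and 8.02%) and *Batf3* (30.1% and 25.7%) differed less, and *Fosl2* had 75.6% at both times. Within the gene body alone, *Junb* and *Jund*, which have short bodies, were higher by 17.0 and 28.1 points.

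Loci of hair follicle genes were read in a list of factors and a list of markers. A D0-only domain lay in 10 of the 15 factor loci and 7 of the 18 marker loci, against 44.3% of all loci. A W1-only domain lay in 3 of the factor and 2 of the marker loci, against 9.90% of all loci. Locus length was not matched in these counts. Of the 56 D0-only domains counted at factor loci, 16 lay at *Sox6* and 15 at *Foxp1*, both long genes. Of 15 hair follicle stem cell transcription factors 4 were higher and 11 lower, with a median of -2.77 points (-0.787 with equal covered bases), and of 18 markers of hair follicle stem cells and outer root sheath 8 were higher and 9 lower, with a median of -0.918 points (0.0349 with equal length, 1.04 with equal covered bases). *Foxc1*, which maintains hair follicle stem cells, had 67.2% and 85.8% but was lower by 32.4 points in the gene body alone. *Ccn2* had 32.7% and 49.0%. *Sox4* had 61.8% and 44.4% and *Cxcl14*, a chemokine gene, 77.8% and 42.8%. *Sox9* had 36.0% and 22.7%: the domain over its start was 6600 bp wide at D0 and 5800 bp at W1, and one of 2600 bp over its 3' end was D0-only. Reads of the transgene can fall on this locus and cannot be told apart from those of the gene.

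Among signalling pathways the Wnt list had 11 of 34 loci higher and 20 lower, with a median of -2.28 points (0 with equal length and equal covered bases). The ligand *Wnt3* had 91.2% and 59.2%, the secreted modulator *Sfrp2* 33.3% and 51.1% (only 0.556 points higher with 50 kb on both sides), and *Ctnnb1*, which encodes β-catenin, 67.4% and 63.5%. Of 14 Hedgehog genes 4 were higher and 9 lower (median -2.93 points, -1.68 with equal covered bases): the signal transducer *Smo* had 58.6% and 42.4%, and the ligand gene *Ihh* 18.2% and 24.3% with 1 W1-only domain, although the difference was 0.188 points with 50 kb on both sides and its gene body alone was lower by 4.28 points. Of 19 Notch genes 4 were higher and 15 lower (median -5.96 points, and 7 higher, 11 lower and -1.82 with equal covered bases), with the ligand gene *Jag2* at 91.9% and 78.1% and the coactivator gene *Maml2* at 36.5% and 50.5% with 4 W1-only domains.

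In the BMP list 6 of 21 loci were higher and 15 lower (median -4.57 points, but 1.22 with equal covered bases), from the ligand *Bmp4* at 70.7% and 47.1% to *Id2* at 58.9% and 64.9%, which was lower by 2.32 points with 50 kb on both sides. In the TGF-beta list 2 of 15 were higher (median -5.30 points, but 6 of 15 and -1.01 with equal covered bases), with the receptor *Tgfbr2* at 52.4% and 37.1% and *Thbs1*, which activates latent TGF-beta, at 42.0% and 50.5%. In the EGF list 2 of 13 were higher (median -2.05 points, 0.398 with equal covered bases), with *Hbegf* at 63.1% and 46.7% and *Errfi1*, an inhibitor of EGF receptors, at 76.9% and 79.7%. Of 12 genes of chromatin cofactors 2 were higher (median -3.87 points, but 5 higher, 7 lower and -0.450 with equal covered bases), with *Arid1a*, a BAF subunit, at 63.2% and 49.3% and *Ep300*, an H3K27 acetyltransferase, at 17.3% and 18.2%.

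Regulators of the epithelial to mesenchymal transition and cadherins had a median cover of 18.95% at D0 and 13.1% at W1, against 18.5% and 14.9% over all loci. Of their 9 loci 2 were higher and 6 lower, with a median difference of -3.01 points (0.499 with equal covered bases). *Zeb2* had 5.98% and 10.015% with 3 W1-only domains, and *Zeb1* 0.589% and 1.18% (lower by 0.423 points with 50 kb on both sides). *Vim* had 13.1% at both times. *Twist1* had 18.95% and 8.12%, *Snai1* 20.3% and 15.4%, *Snai2* 47.6% and 38.2%, the cadherin gene *Cdh1* 69.0% and 62.6%, *Cdh3* 60.5% and 57.5% (higher by 0.431 points in the gene body alone) and *Cdh2* 0.832% and 0.499%.

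**Figure D5:**
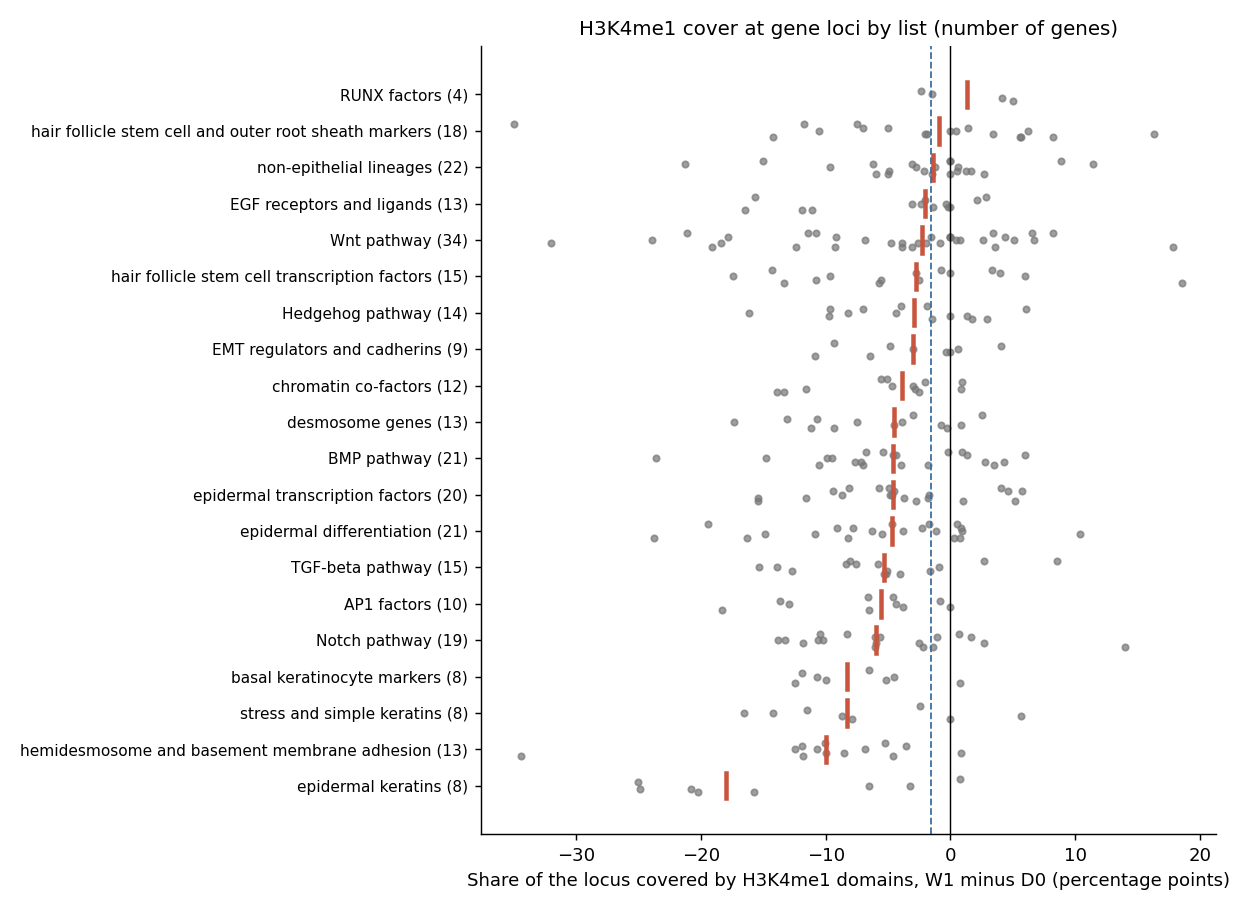
Difference in covered share between W1 and D0, in percentage points, at each locus of the 20 gene lists (dots), with the median of each list (red bar) and the median of all 21911 protein-coding loci (blue dashed line, -1.52 points). The epidermal keratins have the lowest median, at -18.0 points, and the RUNX factors the highest, at 1.33 points.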

How the data were processed

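H3K4me1 and H3K27ac were measured by MINT-ChIP, in which the chromatin of each sample is tagged with a barcode, and the tagged samples are mixed and precipitated together. By their labels the D0 and W1 replicates were in separate libraries, so that time point and library cannot be told apart. As the study describes it, the authors trimmed reads with Skewer, aligned them to GRCm38/mm10 with Bowtie2 (2.2.9 in the submitters' processing notes), removed duplicates with Picard, merged replicates with Samtools (1.9), and called broad H3K4me1 domains with epic2 and H3K27ac peaks with MACS2 (2.1.1). Caller settings and control libraries were not given in the sources used here. The deposited H3K4me1 lists give a p-value for each domain and no depth. The deposited H3K27ac lists give a fold enrichment over background, a linear ratio, for each peak. Pooling hides the spread between animals, and a list made from fewer reads can miss weak domains, whose number then differs between lists.

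Positions were used on 21 chromosomes, with 2 mitochondrial domains set aside in each of the D0 and W1 lists, and count from 1 with both ends included. Domains were called in bins of 200 bp. They were ranked by p-value within a list, with ties ordered by width and then position. The p-value was given as 0 for 9687 D0 and 2077 W1 domains. Connected overlapping domains formed the matched groups. Wider or narrower meant a difference of at least 200 bp. Starts were those of 55413 genes in GENCODE M21 basic, and all 283 genes of the lists were matched by symbol. Shares carry exact 95% Clopper-Pearson intervals (Python 3.11.15, scipy 1.17.1). The overlap, grouping and distance steps were tested on simulated lists.

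The genes and domains named were those of the gene lists with the highest and lowest difference, all genes of lists of up to 10, 7 genes named in the study, the 10 unmatched domains with the smallest p-value and the 5 widest on each side, the 5 pairs, splits and mergers that were most extreme, and the 10 genes nearest to most unmatched domains on each side. The sequences shown were read from domains off chromosome 18 and outside UTRs. The members, lists and rules were chosen with earlier results of these data known. The table columns assigned to samples of other series numbered 0.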

Additional observations from a re-analysis of the deposited data

How the results depend on the processing

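No paired analysis was possible because each time point has 1 pooled list, for which reason no replicate could be left out either. Counts of unmatched domains depended on the calling limit. Lists of equal length gave 8814 W1-only and 12088 D0-only domains and a ratio of D0-only to W1-only of 1.37, where the full lists gave 5.87. Domains with a p-value at or below the median of their list gave 523, 1803 and 3.45. An overlap of 50% of the shorter domain gave a ratio of 5.60. With both lists kept to such p-values there were 25313 1 to 1, 1982 split and 1136 merged groups, with 33.8% of pairs wider and 56.7% narrower. At equal length 35.7% were wider and 52.8% narrower, with domains under 1000 bp apart joined 52.2% narrower, and with a change of at least 25% of the D0 width required 19.8% wider and 24.5% narrower. The narrower share was the larger in each. These settings choose or join domains and leave their outer ends as called. They therefore cannot show how far the narrowing depends on the strength of signal in each list, which was not tested.

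Distal shares of W1-only, D0-only and matched domains were 91.6%, 89.1% and 69.2% with a limit of 1000 bp, 64.6%, 58.9% and 44.8% with 10000 bp, and 84.6%, 81.5% and 62.5% with lists of equal length. With at least 50% of the H3K27ac peak required, a D0 peak was in 0.532%, 1.43% and 26.2% of these classes, and a W1 peak in 1.03% of D0-only and 28.3% of matched domains. Among domains with a p-value at or below the median, a D0 peak was in 8.15% of D0-only and 42.3% of matched domains, and a W1 peak in 29.4%, 5.32% and 42.8%. Chosen after seeing the data were lists of equal length for H3K27ac (a W1 peak in 3.24% of D0-only and 34.5% of matched domains), domains of 1400 to 2600 bp (5% of W1-only and 15.2% of matched domains), windows with 44 to 48% G and C and lists of equal length for ACAATG (26.6% of D0-only and 35.04% of W1-only domains, respectively), and lists of equal covered bases. Lists of equal length for chromosome X, for presence in later lists, for width by H3K27ac, for the nearest genes and for the medians of the gene lists were also chosen after seeing the data. In the central 1000 bp ACAATG was in 54.6%, 42.2% and 41.5%.

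With 50 kb on both sides 19.999% of protein-coding loci held a W1-only and 71.3% a D0-only domain, and with the gene body alone 7.33% and 29.2%. The direction of the covered share was opposite with 50 kb at *Cd151* (-9.80 points), *Cdsn* (-0.571), *Id2* (-2.32), *Krt17* (-3.80), *Krt5* (-3.78), *Krt6a* (2.68), *Ovol1* (-2.33), *Perp* (-2.86), *Runx3* (3.18) and *Zeb1* (-0.423). In the gene body alone it was opposite at *Cdh3* (0.431), *Foxc1* (-32.4), *Gata3* (2.66), *Ihh* (-4.28), *Junb* (17.0) and *Jund* (28.1). These were 16 of 152 values at 76 loci. With 50 kb the difference also shrank at *Cxcl14* (-11.1), *Bmp4* (-11.8), *Fosl1* (-8.86), *Sox4* (-7.90) and *Cbfb* (1.76). The medians of hair follicle markers (0.0349 with equal length, 1.04 with equal covered bases), EGF (0.398), BMP (1.22) and EMT genes (0.499, all with equal covered bases) were also opposite. The cause was not tested. Of the alternative values for the main counts and shares, 49 moved by more than 1.5 times the count or beyond the counting interval and 35 did not.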
